A study of Mus musculus with 8 samples.

Results

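The genes described here are 10 members of the bone morphogenetic protein (BMP) and activin signalling pathways, taken by symbol from a table of 26202 genes measured in 8 libraries. They are the BMP ligand genes Bmp2, Bmp4 and Bmp7, the activin subunit gene Inhba, the pseudoreceptor gene Bambi, the inhibitory Smad genes Smad6 and Smad7, and the BMP target genes Id1, Id2 and Id3. All 10 were found. The libraries were made from skin epidermal cells of newborn mouse pups (day 0 to day 1), plated and transduced after 24 hours with an adenovirus. The pups were Dlx3 wild type or carried a Dlx3 knockout (Dlx3WT or Dlx3KO in the labels). The virus encoded green fluorescent protein (AdGFP), as the control, or the homeobox transcription factor Dlx3 (AdDlx3). There were 2 libraries in each of the 4 groups, and every cell population had been transduced with 1 of the viruses, so no group shows cells without virus. Which part of Dlx3 the knockout removes, the cell type in which it acts and any pooling of pups are not stated in the labels.

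BMP ligands bind pairs of type I and type II serine-threonine kinase receptors, which phosphorylate Smad1, Smad5 and Smad9. Activins use related receptors that phosphorylate Smad2 and Smad3. The activated Smads join Smad4 in the nucleus, where BMP signalling induces the Id genes and the inhibitory Smads, which in turn dampen the pathway. In skin, BMP signalling is known for control of hair follicle differentiation and of stem cell quiescence, and activin A for its induction in wounded epidermis.

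The counts of alignments lay between 73688944 and 124857742 per library, and between 11011 and 11594 genes reached 1 RPKM (read counts scaled for gene length and sequencing depth). With AdGFP, Dlx3 itself stood at 1.71 and 1.77 RPKM in wild-type libraries and 0.656 and 0.558 RPKM in knockout libraries. With AdDlx3 it stood at 237 and 782 RPKM (wild type) and 402 and 539 RPKM (knockout). Replicate 1 of every group was batch A and replicate 2 batch B. The basal keratinocyte markers fixed for these cells (Krt5, Krt14, Krt15, Trp63, Itga6 and Col17a1) were all present. Their summed level in AdGFP was 14979 to 16898 RPKM in batch A and 10837 to 13990 RPKM in batch B. With AdDlx3 it was 6560 to 8123 RPKM in batch A and 754 to 987 RPKM in batch B. That sum is mostly the keratin genes Krt5 and Krt14, and the markers did not move as 1 set. Over both genotypes Itga6 rose (0.55, limma adjusted p = 0.0226) and the other 5 did not pass, with Krt5 at -2.97 (adjusted p = 0.0537) and Krt15 at -0.12. Results are given by batch where the batches differ. Differentiation markers summed in AdGFP to 368 to 544 RPKM (batch A) and 130 to 202 RPKM (batch B). In AdDlx3 they summed to 344 to 385 RPKM (A) and 73.9 to 81.9 RPKM (B). Of the 6 Lor rose (2.75) and Ivl fell (-1.29). The 6 fibroblast markers summed in AdGFP to 17.5 to 22.7 RPKM (batch A) and 7.67 to 9.66 RPKM (batch B). In AdDlx3 their sum was 31.2 to 40.2 RPKM (A) and 9.92 to 10.7 RPKM (B). Of the 4 tested, Col1a2 rose (1.31), while Dcn (1.49), Col1a1 (-1.22) and Col3a1 (-0.66) did not pass. Dermal papilla markers, of which Vcan rose (1.56), summed in AdGFP to 1.13 to 1.28 RPKM (batch A) and 2.05 to 2.75 RPKM (batch B). In AdDlx3 their sum was 4.83 to 6.69 RPKM. Endothelial markers, of which Kdr fell (-1.05), summed in AdGFP to 1.15 to 1.43 RPKM (batch A) and 2.31 to 2.36 RPKM (batch B). In AdDlx3 their sum was 0.544 to 0.759 RPKM. Melanocyte markers differed by genotype, every knockout library being below every wild-type library. With AdGFP they summed to 196 (knockout) and 292 RPKM (wild type) in batch A and 166 and 250 RPKM in batch B. With AdDlx3 their sums were 168 (knockout) and 310 RPKM (wild type) in batch A and 117 and 232 RPKM in batch B. In bulk RNA, fewer cells of a type and less RNA per cell cannot be told apart, and the part of the cell mixture in the results that follow was not tested.

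With the control virus, Inhba was the most abundant of the 10 genes at 62.4 ± 8.67 RPKM (SD, n = 4), and Bambi the least at 0.147 ± 0.0190. Between them came Bmp7 at 17.6 ± 1.34, Id3 at 13.6 ± 4.10, Id1 at 9.41 ± 6.18, Id2 at 4.36 ± 1.89, Smad7 at 3.50 ± 0.558, Bmp2 at 3.27 ± 0.433, Bmp4 at 1.72 ± 1.21 and Smad6 at 0.697 ± 0.181 RPKM. Inhba lay above Bmp7, and Smad6 above Bambi, without overlap of libraries, whereas every other pair of neighbours in this order overlapped. With AdDlx3 the order changed at the top. Id3 (22.2 ± 13.6 RPKM) and Bmp7 (16.3 ± 4.15) stood at or above Inhba (13.5 ± 2.92), their libraries overlapping. Bmp2 (9.79 ± 1.11) stood above Smad7 (7.16 ± 1.94), also with overlap of libraries.

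**Figure D1:**
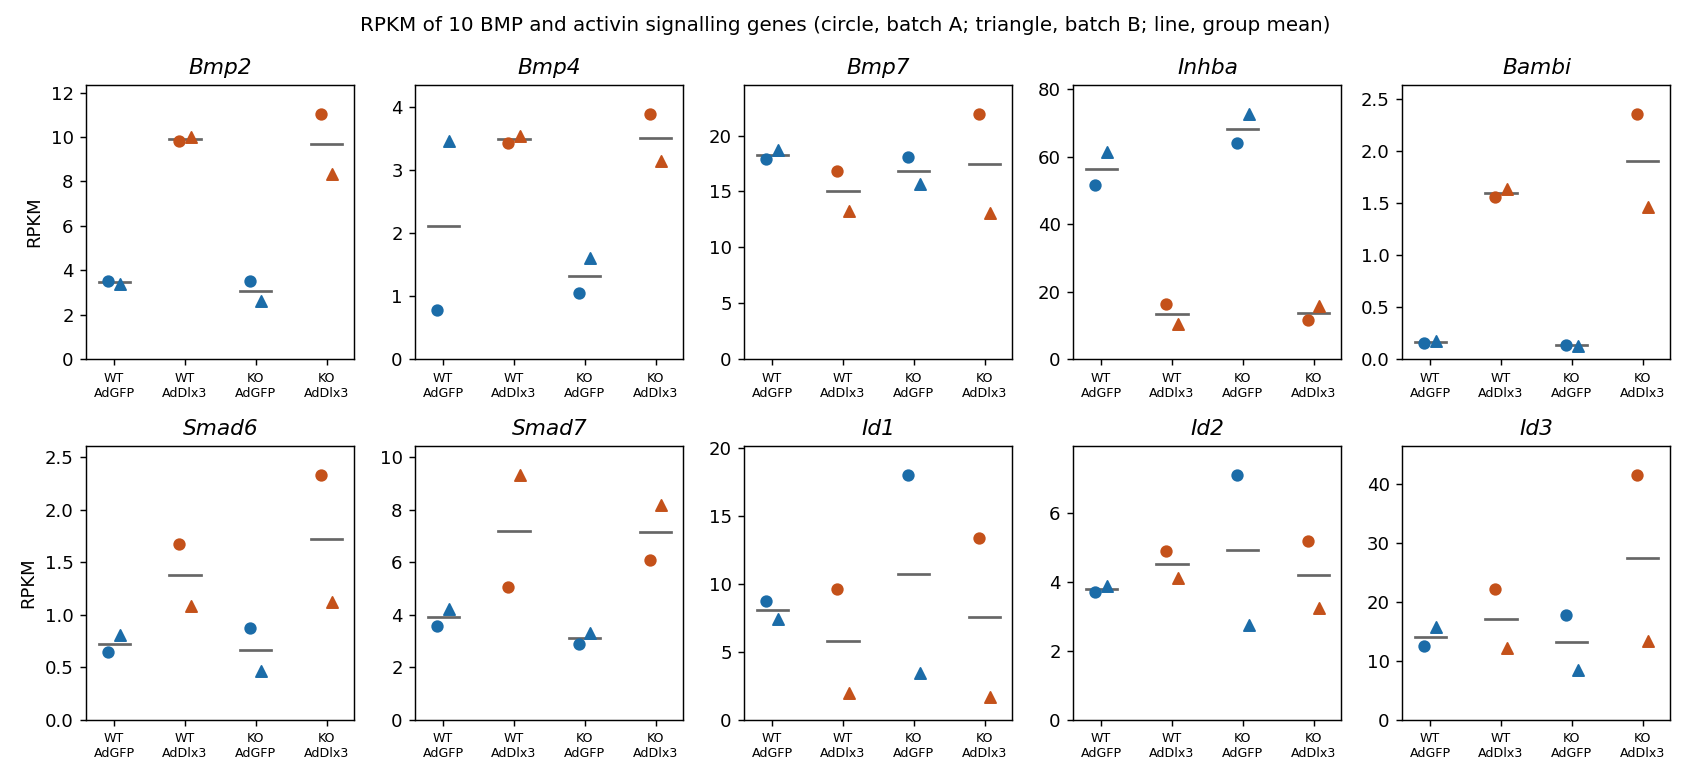
RPKM of each of the 10 genes (y axes from 0) in the 4 groups of genotype (WT, wild type; KO, knockout) and virus. Circles are batch A, triangles batch B and lines group means of 2 libraries. For Bmp2, Bambi and Inhba the AdDlx3 points are clear of the AdGFP points, while Id1 and Id3 are spread by batch.

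The first comparison asked what added Dlx3 did to these genes over both genotypes, 4 libraries of each virus. Bmp2, Bambi, Smad7 and Smad6 rose, Inhba fell, and Bmp4, Bmp7, Id1, Id2 and Id3 did not pass the threshold of a limma adjusted p of 0.05. Thus 4 of 10 rose and 1 of 10 fell, beside 23.4% of all 12090 genes tested that rose and 5.74% that fell. Bambi and Smad6 were below 1 RPKM in every AdGFP library and passed the filter on low values only through AdDlx3, so a gene like them had to differ to be tested. Of the other 8 genes 2 rose and 1 fell. The same 4 and 1 had libraries that did not overlap between viruses, beside 29.6% and 6.27% of all genes. The median log2 change of the 10 genes was 0.66 and that of all genes tested 0.22, so a gene that moved like the median gene would show 0.22. After median-of-ratios scaling 3 of the 10 genes passed, Bmp2, Bambi and Inhba, beside 9.44% of all genes up and 12.2% down, and the share of rises among all genes called went from 80.3% to 43.7%.

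Among the ligands, Inhba, which encodes the beta-A subunit whose homodimer is activin A, fell most (chromosome 13, 16011851 to 16031621, plus strand, GRCm38). In wild-type cells it was 51.6 and 61.5 RPKM with AdGFP and 16.2 and 10.4 RPKM with AdDlx3. In knockout cells it was 64.0 and 72.6 RPKM with AdGFP and 11.6 and 15.8 RPKM with AdDlx3. The lowest AdGFP library was thus far above the highest AdDlx3 library, and the means of the viruses stood 4.63-fold apart. On the log2(RPKM + 0.5) scale Inhba fell by 2.18 (SE 0.17, limma adjusted p = 0.000319), or by 2.40 relative to the median gene. By batch the fall was 2.03 (A) and 2.34 (B). An antisense gene and a pseudogene lie on the opposite strand within Inhba, and whether reads were counted by strand is not stated. The pseudogene, B230303A05Rik, reached at most 0.0548 RPKM in any library.

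Inhba, with the largest change of the 10 genes, and Smad6, a gene that rose, are shown by the 250 bases upstream of the annotated start, 5′ to 3′ (RefSeq, GRCm38.p6). Matches on either strand were sought to TAATT (a core of homeodomain binding sites), GGCGCC (a GC-rich Smad element) and CAGAC (a core of Smad binding elements). Capitals mark TAATT or its reverse complement AATTA, the only match in these windows.
Inhba, chr13:16011601-16011850, plus strand: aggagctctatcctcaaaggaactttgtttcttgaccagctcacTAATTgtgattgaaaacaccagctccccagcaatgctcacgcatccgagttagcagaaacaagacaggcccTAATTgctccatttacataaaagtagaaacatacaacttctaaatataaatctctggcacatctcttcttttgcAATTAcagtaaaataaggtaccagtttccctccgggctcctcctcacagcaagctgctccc
Smad6, chr9:64022060-64022309, minus strand: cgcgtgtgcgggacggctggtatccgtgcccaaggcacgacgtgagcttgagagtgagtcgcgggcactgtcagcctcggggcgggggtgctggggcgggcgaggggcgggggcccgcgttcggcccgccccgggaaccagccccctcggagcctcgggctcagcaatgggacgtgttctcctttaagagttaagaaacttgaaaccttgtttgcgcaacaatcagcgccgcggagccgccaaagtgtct
The Inhba window held TAATT or AATTA 3 times, beginning 206, 135 and 61 bases before the start. Of 32851 such windows in the RefSeq table, 25.0% held the motif at least once and 3.46% at least 3 times. GGCGCC was found in 9.59% and CAGAC or GTCTG in 42.2% of windows. The windows of Bmp4 and Smad6 held none of these letters. Inhba was the poorest of the 3 windows in G and C at 43.2%, against 63.2% (Bmp4) and 66.8% (Smad6). These are matches of letters, and nothing about binding was measured. Of the 10 genes 5 had a window in the table. Those of Id2 and Id3 lay inside the annotated genes and are not used here, and Bmp2, Bmp7, Bambi, Smad7 and Id1 had no entry there.

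Bmp2, a secreted morphogen gene (chromosome 2, 133552159 to 133562885, plus strand, GRCm38), rose. With AdGFP it was at 3.53 and 3.39 RPKM in wild-type and 3.53 and 2.63 RPKM in knockout cells. With AdDlx3 it was at 9.81 and 10.004 RPKM in wild-type and 11.02 and 8.34 RPKM in knockout cells. No AdGFP library came near an AdDlx3 library. The log2 change was 1.45 ± 0.14 (limma adjusted p = 0.000623), 1.23 relative to the median gene, and by batch the change was 1.43 (A) and 1.47 (B). Among the 10 genes its profile over the 8 libraries was nearest to that of Bambi, with a root mean square difference of 0.21 log2 units after centring.

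Bmp4, the closest relative of Bmp2 among the ligand genes, was uneven between the batches of AdGFP. In wild-type AdGFP it was at 0.778 RPKM (batch A) and 3.46 RPKM (batch B), and the knockout AdGFP libraries were at 1.05 and 1.60 RPKM. Under AdDlx3 it was at 3.44 and 3.55 RPKM in wild-type and 3.89 and 3.14 RPKM in knockout cells. The AdDlx3 libraries were close together, and the batch B wild-type AdGFP library was level with them. The log2 change of 0.99 ± 0.33 did not pass (limma adjusted p = 0.0545). It did not pass after median-of-ratios scaling, without (adjusted p = 0.147) or with the replicate block (0.0662). It passed with the block alone (adjusted p = 0.0192), and at 1.35 without wild-type AdGFP replicate 2 (adjusted p = 0.00930). The response of batch A was 1.57 and that of batch B 0.41, a difference of -1.15 ± 0.35 that did not pass (limma adjusted p = 0.0554). It passed without wild-type AdDlx3 replicate 1 (-1.36, adjusted p = 0.0399) and without knockout AdGFP replicate 2 (-1.66, adjusted p = 0.00573). Opposite-strand transcripts Gm15217 and Gm15222 overlap Bmp4, at up to 0.0842 and 0.244 RPKM, and cannot be told from it without strand.

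Bmp7, a BMP ligand gene and the most abundant of the 3 BMP ligands here, stayed between 13.03 and 21.9 RPKM in every library. Its log2 change over both genotypes was -0.14 ± 0.18 (limma adjusted p = 0.588). In batch A the response was 0.09 and in batch B -0.37. After median-of-ratios scaling the change was -0.42, past the threshold with the replicate block (limma adjusted p = 0.0383) and not without it (adjusted p = 0.123).

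Bambi, which encodes a receptor-like membrane protein without a kinase domain that blocks TGF-beta and BMP receptors, rose from near absence. It was at 0.155 and 0.170 RPKM in the wild-type AdGFP libraries and 0.135 and 0.128 RPKM in knockout AdGFP. With AdDlx3 it was at 1.56 and 1.63 RPKM in wild-type and 2.35 and 1.46 RPKM in knockout cells. Every AdDlx3 library was several times above every AdGFP library, and the means stood 11.9-fold apart. On the log2(RPKM + 0.5) scale the change was 1.78 ± 0.17 (limma adjusted p = 0.000653), and 2.88 with a pseudocount of 0.1, since the values are low. By batch the response was 1.91 (A) and 1.66 (B). A pseudogene copy, Bambi-ps1, was measured at 0.160 to 0.398 RPKM in AdGFP and 0.155 to 0.810 RPKM in AdDlx3. Reads that the counting may have divided between the copies make both values uncertain.

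The inhibitory Smad genes rose by less. Smad7, whose product blocks receptor signalling of both BMP and TGF-beta or activin type, was at 3.58 and 4.22 RPKM in the wild-type AdGFP libraries and 2.89 and 3.31 RPKM in knockout AdGFP. Under AdDlx3 the wild-type libraries were at 5.04 and 9.31 RPKM and the knockout libraries at 6.09 and 8.19 RPKM. All AdDlx3 libraries were above all AdGFP libraries, and batch B was higher than batch A in both AdDlx3 groups. Its log2 change was 0.91 ± 0.20 (limma adjusted p = 0.0142), 0.69 relative to the median gene. It did not pass after median-of-ratios scaling (0.64, adjusted p = 0.0591), and did with scaling and the replicate block together (adjusted p = 0.00816).

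Smad6, whose product acts mainly on BMP receptors and Smad1, was at 0.644 and 0.807 RPKM in the wild-type AdGFP libraries and 0.872 and 0.466 RPKM in knockout AdGFP. With AdDlx3 it was at 1.68 and 1.09 RPKM in wild-type and 2.33 and 1.118 RPKM in knockout cells. The groups did not overlap, with batch A the higher in both AdDlx3 groups. Its log2 change of 0.75 ± 0.24 was close to the threshold (limma adjusted p = 0.0460; chromosome 9, 63953076 to 64022059, minus strand). The call was kept with the replicate block (limma adjusted p = 0.00875) and with block and scaling together (0.0371). It was lost after median-of-ratios scaling alone (0.55, adjusted p = 0.133) and with no filter on low values (adjusted p = 0.0828). It was lost on leaving out wild-type AdGFP replicate 1 or 2 (adjusted p = 0.109 and 0.0792), either knockout AdGFP library (0.0690 and 0.114), or the first replicate of wild-type (0.0973) or knockout AdDlx3 (0.0880).

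**Figure D2:**
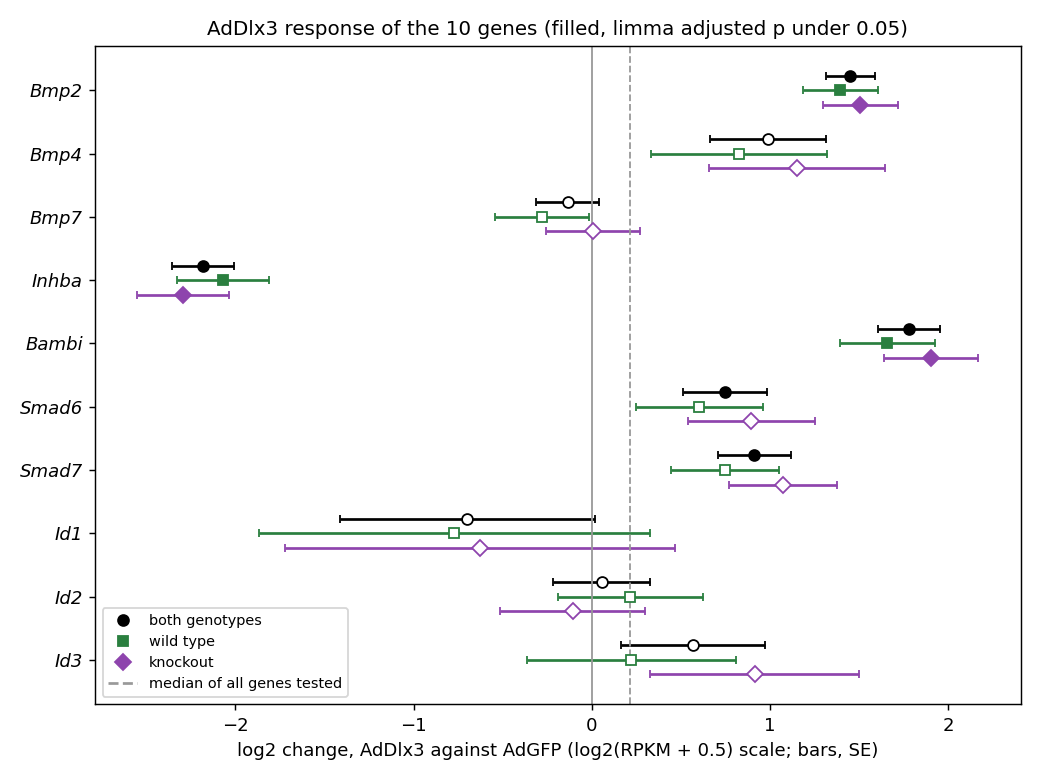
Log2 change of AdDlx3 against AdGFP (x axis, log2(RPKM + 0.5) scale) for each of the 10 genes over both genotypes and in each genotype. Bars are standard errors, filled symbols passed a limma adjusted p of 0.05, and the dashed line marks the median of all genes tested, 0.22. Bmp2 and Bambi are filled on the right and Inhba on the left in all 3 fits, and the bars of Id1 are the widest.

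The Id genes encode helix-loop-helix proteins without a DNA-binding region, which sequester basic helix-loop-helix transcription factors and are induced by BMP-activated Smads. None of the 3 passed over both genotypes. Id1 (chromosome 2, 152736251 to 152737410, plus strand) was at 8.72 and 7.44 RPKM in the wild-type AdGFP libraries and 18.04 and 3.44 RPKM in knockout AdGFP. With AdDlx3 it was at 9.61 and 1.99 RPKM in wild-type and 13.4 and 1.70 RPKM in knockout cells. Batch B was below batch A in all 4 groups, and the lowest values were those of the batch B AdDlx3 libraries. The change over both genotypes was -0.70 ± 0.72 (limma adjusted p = 0.486).

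Id1 differed by -0.14 with AdDlx3 in batch A and by -1.26 in batch B. The difference between the batches was -1.12 ± 0.51 and did not pass (limma adjusted p = 0.161), but it did without knockout AdGFP replicate 1 (-1.74, adjusted p = 0.0499) and without knockout AdGFP replicate 2 (-1.84, adjusted p = 0.0165). In the same batch B AdDlx3 libraries the summed basal keratinocyte markers were at 754 and 987 RPKM. Whether the state or mixture of the cells bears on Id1 was not tested.

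Id3 (chromosome 4, 136143497 to 136145755, plus strand) was at 12.4 and 15.7 RPKM in the wild-type AdGFP libraries and 17.8 and 8.41 RPKM in knockout AdGFP. With AdDlx3 it was at 22.1 and 12.1 RPKM in wild-type and 41.5 and 13.3 RPKM in knockout cells. The batch A AdDlx3 libraries were the highest of all 8, and those of batch B lay within the AdGFP range. The change was 0.57 ± 0.40 (limma adjusted p = 0.313), and by batch the change was 0.9997 (A) and 0.14 (B). The batch difference of -0.86 ± 0.45 did not pass (limma adjusted p = 0.207) but did without knockout AdGFP replicate 2 (-1.55, adjusted p = 0.0101) and without wild-type AdDlx3 replicate 1 (-1.35, adjusted p = 0.0498).

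Id2 (chromosome 12, 25093799 to 25097140, minus strand) showed the least movement of the Id genes with the virus. Its wild-type AdGFP libraries were at 3.70 and 3.89 RPKM. It was at 7.09 and 2.74 RPKM in knockout AdGFP, and with AdDlx3 at 4.90 and 4.11 RPKM (wild type) and 5.17 and 3.25 RPKM (knockout). The AdDlx3 libraries lay within the range of the knockout AdGFP pair. The change was 0.06 ± 0.27 (limma adjusted p = 0.893), and -0.21 after median-of-ratios scaling.

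**Figure D3:**
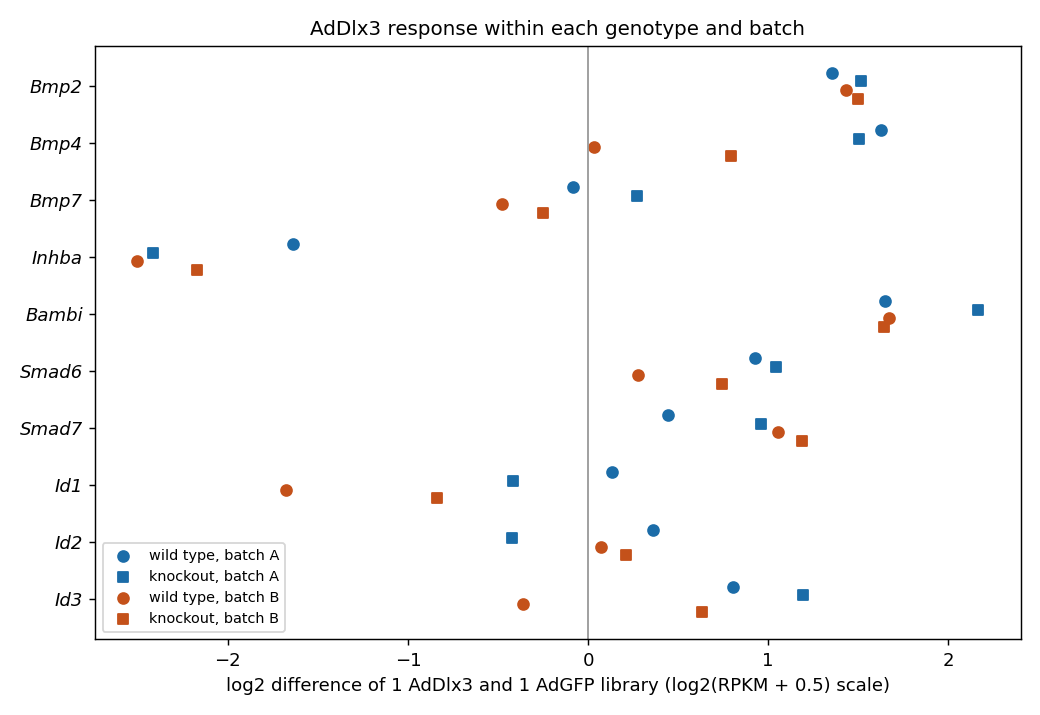
Log2 difference between 1 AdDlx3 library and the AdGFP library of the same genotype and batch (x axis, log2(RPKM + 0.5) scale), with 4 such pairs for each of the 10 genes. Bmp2, Bmp4, Bambi, Smad6 and Smad7 were higher in 4 of 4 pairs and Inhba lower in 4 of 4. Bmp4 was higher by only 0.03 in wild-type cells of batch B. In each genotype the differences of Bmp4, Bmp7, Smad6, Id1 and Id3 were lower in batch B (orange) than in batch A (blue).

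Over the 4 pairs of same genotype and batch, Bmp2, Bmp4, Bambi, Smad6 and Smad7 were higher with AdDlx3 in 4 of 4, as were 46.5% of all genes tested. Inhba was lower in 4 of 4, as were 13.2% of all genes. Bmp7 and Id1 were higher in 1 of 4, Id2 and Id3 in 3 of 4. For none of the 10 genes did the response differ between the batches at an adjusted p of 0.05, where 14.0% of all genes did. In limma with an unadjusted p of 0.05 it differed for 1 of the 10, Bmp4, and for 3929 of all 12090 genes. The number past the adjusted threshold was 3 without wild-type AdDlx3 replicate 1, 3 without knockout AdGFP replicate 2 and 1 without knockout AdGFP replicate 1.

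The next comparisons took the AdDlx3 response in each genotype, with 2 libraries against 2. In wild-type cells Bmp2 rose by 1.39 ± 0.21 (limma adjusted p = 0.0287), Bambi by 1.66 ± 0.27 (adjusted p = 0.0330), and Inhba fell by 2.07 (SE 0.26, adjusted p = 0.0208). Thus 2 of 10 rose and 1 fell, beside 2.27% and 0.356% of all genes. Bambi and Smad6 passed the filter on low values only through AdDlx3, and without them the genes called were Bmp2 and Inhba. Smad7 differed by 0.75 ± 0.30 and passed only with the replicate block (adjusted p = 0.193, and 0.0385 with the block). Without either wild-type AdGFP library or wild-type AdDlx3 replicate 2 none of the 10 genes passed. The adjusted p was then 0.176 to 0.242 for Bmp2, 0.179 to 0.246 for Bambi and 0.0879 to 0.203 for Inhba. Without wild-type AdDlx3 replicate 1 (0.0522 and 0.0547) and without knockout AdGFP replicate 2 (0.05002 and 0.0699) Bmp2 and Bambi did not pass, nor did Bambi without knockout AdGFP replicate 1 (0.0705). After median-of-ratios scaling Inhba alone passed (0.0595 for Bmp2, 0.0523 for Bambi), and with no filter none did.

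In knockout cells Bmp2 rose by 1.51 ± 0.21 (limma adjusted p = 0.0192), Bambi by 1.90 ± 0.27 (adjusted p = 0.0188), and Inhba fell by 2.29 (SE 0.26, adjusted p = 0.0115). These were again 2 of 10 up and 1 down, beside 4.43% and 0.893% of all genes. With Bambi and Smad6 left out for the same reason, the genes called were again Bmp2 and Inhba. Smad7 differed by 1.07 ± 0.30 (adjusted p = 0.0862, and 0.0128 with the block) and Smad6 by 0.89 ± 0.36 (adjusted p = 0.183, and 0.0476 with the block). Smad7 passed without either wild-type AdDlx3 library (0.0484 and 0.0497). Bmp2 and Bambi did not pass on leaving out any AdGFP or knockout library (adjusted p = 0.0577 to 0.112 for Bmp2 and 0.0503 to 0.115 for Bambi). Inhba did not pass without either knockout AdGFP library (0.0619 and 0.0879) or knockout AdDlx3 replicate 1 (0.0809). In the authors' deposited table Bambi was higher by 6.45-fold in wild-type (q = 0.0369) and by 8.45-fold in knockout cells (q = 0.0321). That table gives Inhba as 4.30-fold lower in wild-type (q = 0.0652) and 5.02-fold lower in knockout cells (q = 0.0497).

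The interaction of genotype and virus asks whether the response depended on the endogenous gene. For the 10 genes it lay between -0.32 for Id2 and 0.69 for Id3, and none passed (limma adjusted p = 0.999948 for each). Of all genes 0.00% passed. An unadjusted p under 0.05 was reached by 0 of the 10 genes and by 40 of all 12090. That is well under the share of 0.05 that chance alone would give. The model holds no batch term, so spread shared within a batch stays in its errors and these p-values can run large. The interaction was 0.11 ± 0.30 for Bmp2, -0.22 ± 0.36 for Inhba and 0.25 ± 0.37 for Bambi, which does not show that the genotypes respond alike.

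The knockout was compared with wild type under each virus. Under AdGFP the 10 genes differed by between -0.32 for Bmp4 and 0.27 for Inhba on the log2 scale. None passed in limma (adjusted p = 1 for each), and 0.00% of all genes did. Dlx3 itself differed by -1.02 ± 0.50 and did not pass either. An unadjusted p under 0.05 was reached by 0 of the 10 and by 121 of all genes. That too is well under a share of 0.05, with no batch term in the model. Inhba was higher in both knockout libraries than in both wild-type ones (0.27 ± 0.26), and Bambi (-0.07 ± 0.27) and Smad7 (-0.29 ± 0.30) were lower in both. Such separation occurred in 13.3% of all genes upward and 14.1% downward. Under AdDlx3 the differences ran from -0.11 for Id2 to 0.51 for Id3, and none passed in limma, as 0.00% of all genes did. An unadjusted p under 0.05 was reached by 0 of the 10 and by 45 of all genes, again well under a share of 0.05. The libraries of both genotypes overlapped for each of the 10 genes, while 6.34% of all genes were higher and 7.36% lower without overlap. In knockout against wild type under AdGFP, Id1 differed by 1.01 in batch A and by -1.01 in batch B, Id3 by 0.50 and -0.86, and Id2 by 0.85 and -0.44. All 3 were higher in the knockout library in batch A and lower in batch B.

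Beside the 10 genes, 62 other genes of these pathways are reported, of which 41 passed the filter on low values and 21 did not. Over both genotypes 10 of 41 rose with AdDlx3 (24.4%, beside 23.4% of all genes) and 10 fell (24.4%, beside 5.74%). Scaling by median of ratios left 5 up and 11 down, beside 9.44% and 12.2% of all genes. The replicate block gave 13 up and 13 down, beside 37.98% and 10.9% of all genes. Of the 41, Id4, Msx1 and Bmp8a passed the filter on low values only through AdDlx3 libraries and Bmp6 only through AdGFP, and of the other 37 genes 8 rose and 9 fell. On leaving out 1 library fewer of the pathway genes rose and fewer fell in every such fit. Of all genes tested, fewer also rose in every such fit and fewer fell in most of them.

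Other ligands and subunits fell or rose singly. Inhbb, which encodes the activin beta-B subunit, was at 3.45 to 15.9 RPKM with AdGFP and 1.41 to 2.15 RPKM with AdDlx3, and fell by 1.79 (SE 0.42, limma adjusted p = 0.0176, and 0.0589 without wild-type AdGFP replicate 2). Inha, whose alpha subunit pairs with the beta subunits to make inhibin, an opponent of activin, rose by 0.95 ± 0.15 (adjusted p = 0.00390). Its libraries were at 1.17 to 1.99 RPKM with AdGFP and 3.18 to 3.88 RPKM with AdDlx3. Tgfb3, a TGF-beta ligand gene, rose by 0.53 ± 0.14 (adjusted p = 0.0258), and of the BMP ligand genes Bmp6 fell by 0.80 (SE 0.24, adjusted p = 0.0394). Of the 2, Tgfb3 passed in 1 of the 8 fits that leave out a library, that without wild-type AdDlx3 replicate 1 (0.0311, against 0.0524 to 0.0732), and did not pass after scaling (0.154). Bmp6 passed in 1, that without knockout AdGFP replicate 1 (0.0291, against 0.0521 to 0.113), and did not pass with no filter (0.0740). Bmp6 was below 1 RPKM in every AdDlx3 library.

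Of 5 BMP receptor genes tested, the type I receptor gene Bmpr1b fell by 0.98 (SE 0.17, limma adjusted p = 0.00540), from 3.28 to 5.34 RPKM with AdGFP to 1.70 to 2.31 RPKM with AdDlx3, and 4 did not pass. Of 6 activin and TGF-beta receptor genes, the type I receptor gene Tgfbr1 rose by 0.63 ± 0.17 (adjusted p = 0.0314) and 5 did not pass. Of all genes tested 5.74% fell and 23.4% rose. Tgfbr1 was not called after scaling (0.192), with no filter (0.0582) or in 6 of the 8 fits that leave out a library (0.0574 to 0.0838), and was called without knockout AdGFP replicate 1 (0.0333) or without that of AdDlx3 (0.0206).

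Of 9 extracellular antagonists and modulators tested 4 fell, 1 rose and 4 did not pass, beside 5.74% of all genes that fell and 23.4% that rose. After scaling 5 fell and 1 rose, beside 12.2% and 9.44% of all genes. Fewer fell without either wild-type AdGFP library, without replicate 2 of either AdDlx3 group or without knockout AdGFP replicate 1. Of all genes tested, fewer fell in those fits as well. Nog, the gene of the BMP antagonist noggin, was at 5.20 and 10.7 RPKM in the wild-type AdGFP libraries and 3.998 and 10.03 RPKM in knockout AdGFP. Under AdDlx3 it was at 2.21 and 1.06 RPKM in wild-type and 1.31 and 0.867 RPKM in knockout cells. Batch B was above batch A with AdGFP and below it with AdDlx3. Nog fell over both genotypes by 2.04 (SE 0.34, limma adjusted p = 0.00447). Fstl3, whose product binds activin, was at 44.6 to 68.4 RPKM with AdGFP and 17.3 to 40.7 RPKM with AdDlx3, and fell by 1.01 (SE 0.26, adjusted p = 0.0230). Its call was lost in 5 of the 8 fits that leave out a library (0.0530 to 0.0670), those without either wild-type AdGFP library, replicate 2 of either AdDlx3 group or knockout AdGFP replicate 1, and with no filter (0.0531). Rgmb, which encodes a membrane-anchored BMP co-receptor, rose by 0.83 ± 0.13 (adjusted p = 0.00422). Also lower, and named after their values were seen, were the BMP co-receptor gene Rgma (-1.20) and the BMP antagonist gene Nbl1 (-0.41). Fst, the gene of the activin-binding protein follistatin, was abundant at 32.9 to 100.1 RPKM and did not pass (-0.70 ± 0.25, adjusted p = 0.0680). It was called lower after scaling (-0.997, adjusted p = 0.0250), with the replicate block (0.0441), with both (0.0129) and without wild-type AdDlx3 replicate 1 (0.0258).

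Among Smad genes and their ubiquitin ligases 3 of 7 rose and 1 fell, beside 23.4% and 5.74% of all genes, and 3 did not pass. After scaling Smad1 alone rose, beside 9.44% of all genes. Fewer rose in every fit that leaves out a library but that without knockout AdDlx3 replicate 1. Of all genes tested, fewer rose in each of these fits. Smad1, the BMP-activated Smad gene, was at 10.4 to 14.9 RPKM with AdGFP and 22.5 to 25.2 RPKM with AdDlx3, and rose by 0.91 ± 0.12 (limma adjusted p = 0.00229). Smurf1, which encodes a ubiquitin ligase that marks BMP Smads for degradation, was at 50.6 to 59.3 RPKM with AdGFP and 18.4 to 27.7 RPKM with AdDlx3, and fell by 1.24 (SE 0.15, adjusted p = 0.00139). Its relative Smurf2 rose by 0.78 ± 0.20 (adjusted p = 0.0235). The call of Smurf2 was kept without the first AdDlx3 replicate of wild type or knockout (0.0153 and 0.0163) and lost in the other 6 such fits (0.0535 to 0.0690) and after scaling (0.122). The third that rose, named after its values were seen, was the activin-activated Smad2 (0.42, adjusted p = 0.0339). Its call was lost after scaling (0.457), with scaling and the block (0.372) and in 7 of the 8 fits that leave out a library (0.0540 to 0.0941), being kept without knockout AdDlx3 replicate 1 (0.0399).

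Of 5 further BMP target genes listed, 2 were under the filter on low values (Hey1 and Atoh8). Id4 and Msx1 passed it only through AdDlx3 libraries, so no count of rises is read for this list. Id4, the fourth Id gene, was at 0.226 to 0.314 RPKM with AdGFP and 1.39 to 2.36 RPKM with AdDlx3, a log2 change of 1.55 ± 0.17 (limma adjusted p = 0.000999). The homeobox gene Msx2 rose by 1.31 ± 0.27 (adjusted p = 0.0104), from 6.95 to 8.52 RPKM to 12.5 to 31.6 RPKM. Its relative Msx1 rose by 1.09 ± 0.34 (adjusted p = 0.0466). The call was lost after scaling (0.0838), with a pseudocount of 1 (0.0539) and with no filter (0.0853). It was also lost without wild-type AdGFP replicate 1 or 2 (changes of 0.99 and 1.20) and without knockout AdGFP replicate 1 or 2 (0.97 and 1.19). Without replicate 2 of either AdDlx3 group Msx1 fell under the filter and was not tested.

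Of 4 TGF-beta and activin target genes 2 fell, beside 5.74% of all genes, and 2 did not pass. Ccn2, which encodes connective tissue growth factor, fell by 1.98 (SE 0.22, limma adjusted p = 0.00116), from 75.6 to 198 RPKM to 21.4 to 47.0 RPKM. Pmepa1, which encodes a feedback inhibitor of TGF-beta signalling, fell by 1.15 (SE 0.23, adjusted p = 0.00956). Ccn2 also responds to other pathways, and no comparison here separates these. Skil differed by 0.35 and Tgfbi by -1.88 ± 1.34, with Tgfbi at 0.990 and 1.33 RPKM in batch B AdDlx3 and 32.9 and 40.6 RPKM in batch A AdDlx3. Tgfbi was not called (limma adjusted p = 0.315), but was called lower with the replicate block (0.00289) and with block and scaling (0.00174). With the block 3 of 4 genes fell, beside 10.9% of all genes.

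**Figure D4:**
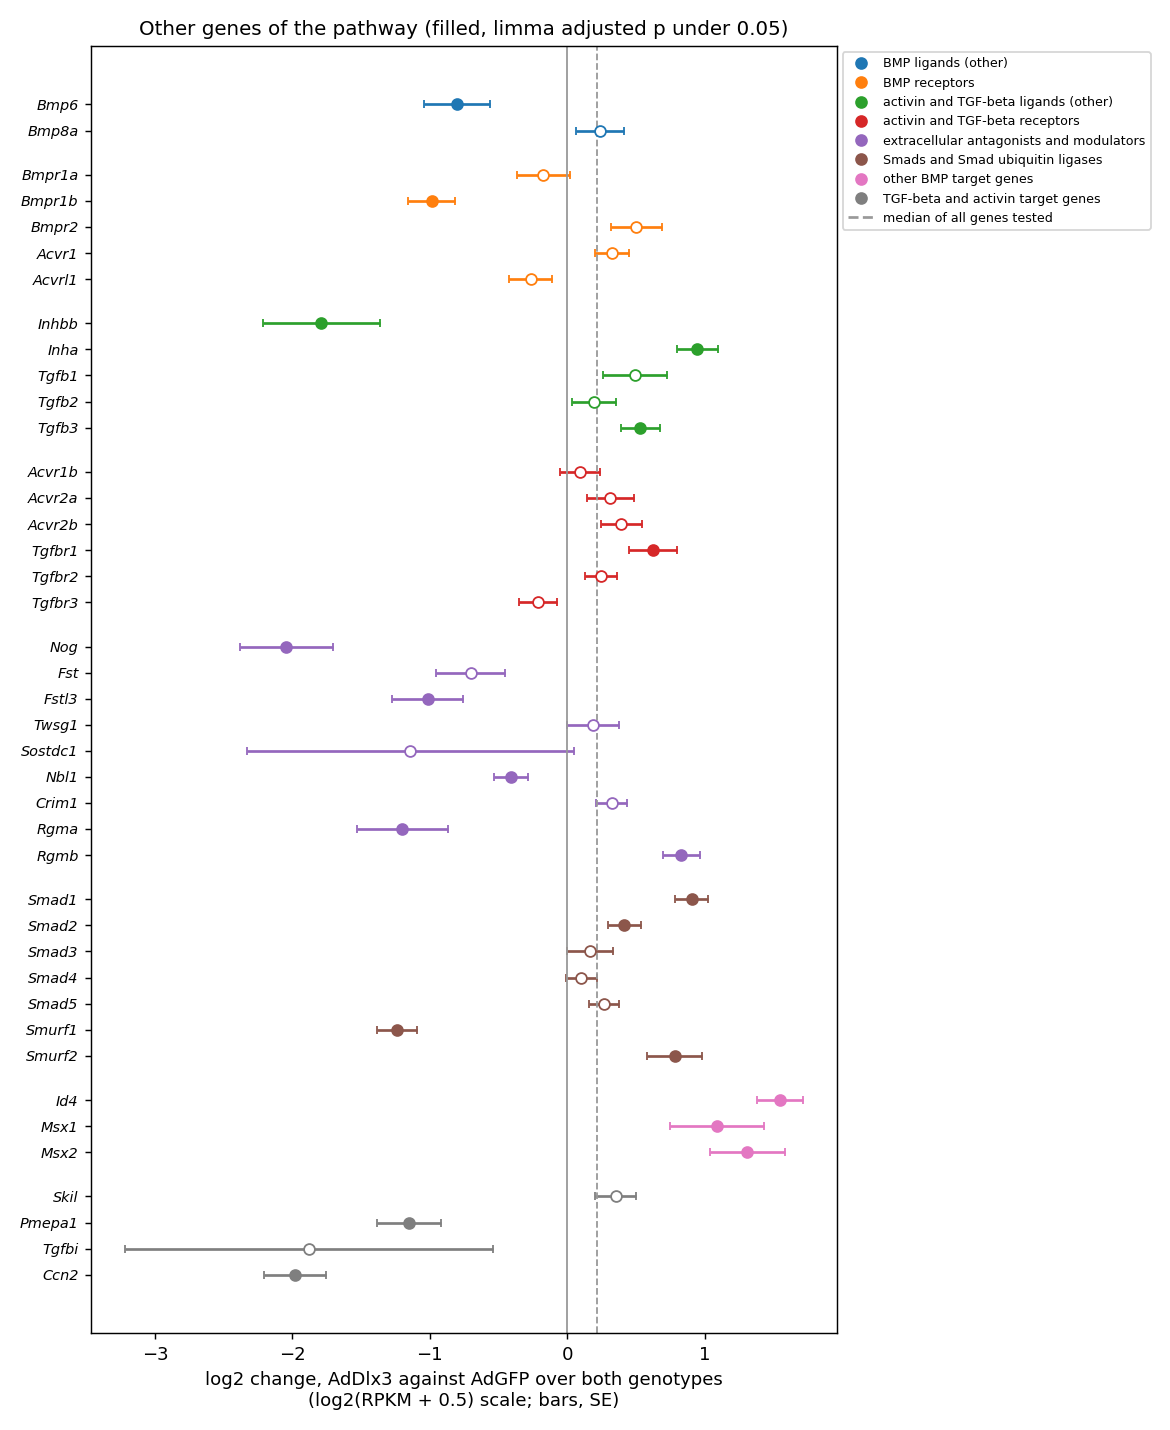
Log2 change of AdDlx3 against AdGFP over both genotypes (x axis, log2(RPKM + 0.5) scale) for the 41 other pathway genes tested, coloured by list. Bars are standard errors, filled points passed a limma adjusted p of 0.05, and the dashed line is the median of all genes, 0.22. Msx2 lies to the right, as do Id4 and Msx1, which passed the filter on low values only through AdDlx3 libraries. Of the TGF-beta and activin targets, Ccn2 and Pmepa1 are filled on the left.

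Nearness in profile was taken on the log2(RPKM + 0.5) scale, which understates changes of low genes such as Bambi. Among all genes tested, the nearest over the 8 libraries were Aph1c and Foxred2 to Bmp2, with root mean square differences of 0.09 and 0.10 log2 units after centring. They were Rtn4rl1 and Mapk8ip1 to Bambi (0.11 and 0.11), and Gadd45g and Nipal4 to Inhba (0.22 and 0.23). The nearest to Id1 were Fam83c and Ggt6 (0.21 and 0.25), both of which were at 0.535 to 0.653 RPKM in the batch B AdDlx3 libraries and 3.07 to 4.70 RPKM in those of batch A. Cercam and Btbd2 were nearest to Id3 (0.23 and 0.24) and Lrp1 and Cd68 to Id2 (0.15 and 0.17). For Bmp4 they were Hivep3 and Bahcc1 (0.24 and 0.27), for Smad6 Cdkn2d and Fam189b (0.08 and 0.10) and for Smad7 Sult4a1 and Tle1 (0.09 and 0.10). Card19 was among the nearest to Bmp7 (0.07).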

How the data were processed

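Polyadenylated RNA was sequenced in 8 libraries. Per the submitters' processing notes, bcl2fastq 2.20.0.422, TopHat2 2.1.1 and Partek were used with build mm10. No annotation, counting setting or strand option is stated there. The deposited values are the authors' RPKM for 26202 genes, with a count of alignments and a batch letter per library. Per the file headers, the authors' table of comparisons holds log2 group means, p-values and q-values, the ratio of each pair of groups and a signed fold change, a score that is the ratio or minus its inverse. RPKM values are not counts, so no count test was run.

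A gene was kept where 2 or more libraries reached 1 RPKM, which left 12090 genes, analysed as log2(RPKM + 0.5) with limma 3.58.1 in R 4.3.3 (moderated variances, intensity trend). An additive model of genotype and virus gave the AdDlx3 effect over both genotypes, with 5 residual degrees of freedom. A model of the 4 groups gave the other contrasts, with 4. The threshold was 0.05 after Benjamini-Hochberg adjustment across the 12090 genes, and every adjusted p is limma's. The fit was tested on simulated data with noise drawn independently for each library, so not under departures shared within a batch. Fold changes on this scale understate changes of low genes. Errors of log2 changes are standard errors.

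Every replicate 1 is batch A and every replicate 2 batch B in the deposited sample sheet, so the numbers pair the libraries. Across genes, the departures from the group mean correlated between groups within a batch at 0.351 to 0.876. The labels do not say whether libraries came from separate pups or cultures, so p-values measure only the spread between these libraries, which may be technical.

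Results for a few other genes are not reported here, and the pathway counts leave them out. The 10 genes, the pathway lists and the naming rule were chosen with earlier results of these data known. The rule names the 10 genes throughout, up to 3 genes of each pathway list with the smallest adjusted p past the threshold over both genotypes, and for each of the 10 genes the 2 genes, predicted models left out, whose centred log2 values lie nearest by root mean square difference. Alternatives were pseudocounts of 0.1 and 1, no filter, median-of-ratios scaling, the replicate block, both together, and leaving out each library. In the last, a group left with 1 library is assumed to vary like the other groups.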

Additional observations from a re-analysis of the deposited data

Results flagged for a closer look

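Of the 20 sets of 4 libraries of 1 virus checked over the 10 genes, 1 held a library far from the others. Bmp2 in knockout AdGFP replicate 2 was at 2.63 RPKM, while the other 3 AdGFP libraries were at 3.39 to 3.53 RPKM. Chance sets apart about 1 in 20 such sets.

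For 6 of the 17 named pathway genes outside the 10, a test of the difference itself found that the AdDlx3 response differed between batches (limma adjusted p under 0.05). The response in batch B minus that in batch A was -1.70 log2 units for Nog (adjusted p = 0.00180), -1.13 for Inhbb (0.0396), -1.08 for Ccn2 (0.00931), -0.78 for Fstl3 (0.0374), -0.74 for Pmepa1 (0.0282) and 0.79 for Smurf2 (0.0131). Of all 41 pathway genes tested 10 passed, 1 upward and 9 downward, or 24.4%, beside 14.0% of all genes tested. With no filter on low values all 6 calls were lost, with adjusted p from 0.0536 for Smurf2 to 0.195 for Inhbb, and 0.0562 for Nog and 0.0874 for Ccn2. The calls of Nog and Ccn2 were kept in all 8 fits that leave out a library. Smurf2 lost its call in 2 of these fits, Fstl3 in 5, and Inhbb and Pmepa1 in 6 each.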

How the results depend on the processing

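Over both genotypes Bmp2, Bambi and Inhba kept their direction and call under every alternative run. Of all genes 3525 passed, 2089 to 3307 on leaving out 1 library and 5908 with the replicate block. Of the 10 genes 5 passed, 4 to 5 on leaving out a library, and 3 after median-of-ratios scaling. In wild-type cells 317 genes passed, against 128 with no filter on low values, 156 after scaling, 2657 with the replicate block, 1884 with block and scaling, and 0 to 489 on leaving out a library. Of the 10 genes 3 passed there, 0 with no filter, 1 after scaling and 0 to 3 without a library. In knockout cells 643 passed, against 363, 334, 2976, 2216 and 4 to 733 in the same order. Of the 10 genes 3 passed there, 5 with the replicate block and 0 to 4 without a library. With no filter 1 gene passed for genotype under AdGFP, 4 under AdDlx3 and 4 for the interaction, where otherwise 0 did. The batch difference was called for 1692 genes, for 241 with no filter and for 532 to 2465 without a library; of the 10 genes for 0, and 0 to 3 without a library. Changes of sign concerned values that had not passed. After scaling, with or without the block, Id2 was at -0.21 over both genotypes and -0.050 in wild-type cells, Id3 at -0.068 in wild-type and Bmp7 at -0.28 in knockout cells. Without a library, Id2 ran from -0.16 to 0.33 over both genotypes. In wild-type cells Id1 ran from -1.78 to 0.24 and Id3 from -0.20 to 0.64. In knockout cells Bmp7 ran from -0.36 to 0.37, Id1 from -1.96 to 0.70 and Id2 from -0.72 to 0.51. The replicate block changed no call of the 10 genes other than those given for Bmp4, Smad6 and Smad7. The cause of these changes was not tested. The replicate block was not run for the batch difference, whose model already holds the batch. With 2 libraries a group, a value that did not pass does not show that there was no change.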
